A study of Caenorhabditis elegans with 4 samples.

Results

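The genes described are the glycolytic genes gpd-1, gpd-2, gpd-3, gpd-4, enol-1, pyk-1, pyk-2 and ldh-1 and the glyoxylate cycle gene icl-1 of Caenorhabditis elegans, 9 in all, found by their symbol in the probe annotation. Of these, 7 had at least 1 probe annotated to them alone, 10 probes together, among 14943 named genes and 21632 probes on the array. The other 2, gpd-1 and gpd-2, had no such probe and so have no value of their own. The study used 4 two-channel arrays, each with total RNA of a separate prep of glp-4 L4 larvae, larvae in the stage just before adulthood, against a wild-type reference of mixed stages. Mutants of glp-4, a valyl-tRNA synthetase gene, are known for a germline that does not proliferate at the restrictive temperature. For glp-4 itself there is no value here, because its probe is shared with another gene. The labels give no allele, temperature, staging method or count of animals. Genotype and stage differ together between the channels, so that their parts in any ratio cannot be told apart.

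Glycolysis splits glucose into pyruvate. Glyceraldehyde-3-phosphate dehydrogenase (GAPDH, the gpd genes) carries out its oxidative step, enolase (enol-1) makes phosphoenolpyruvate, and pyruvate kinase (pyk-1 and pyk-2) makes pyruvate from it, while lactate dehydrogenase (ldh-1) interconverts pyruvate and lactate. The glyoxylate cycle bypasses the carbon-releasing steps of the tricarboxylic acid (TCA) cycle and lets the worm make sugar from fat. In C. elegans its enzymes, isocitrate lyase and malate synthase, are fused in the icl-1 protein, and the cycle is known from embryos and young larvae. The GAPDH genes come in 2 pairs of near-identical copies, gpd-1 with gpd-4, known as the embryonic forms, and gpd-2 with gpd-3, known as the postembryonic forms.

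All values are log2 ratios, in which 1 is a 2-fold difference. They are read as glp-4 L4 over reference, a likely direction, given which channel comes first, that the labels do not state; every "higher" and "lower" rests on it. A ratio compares 1 gene between the 2 RNAs and says nothing about which of 2 genes has more transcript. In RNA of whole animals, fewer cells of a type and less RNA per cell cannot be told apart. Nothing in the labels says that the preps came from separate cultures, so the spread behind each p-value is that between these preps and may be technical. The p-values leave out the spread of the reference.

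The members went in both directions. By limma's moderated test against 0, adjusted over all 19989 items tested (named genes and unnamed probes), 2 of the 7 measured members were higher, pyk-2 and enol-1, and 2 were lower, gpd-4 and icl-1, while gpd-3, ldh-1 and pyk-1 did not pass an adjusted p of 0.05. Of all items 45.0% were called, 20.6% higher and 24.4% lower, so 4 of 7 is near the share of the array as a whole. A change of more than 2-fold (limma treat) was called for 2 members, gpd-4 lower and pyk-2 higher, against 8.59% of all items, 4.38% higher and 4.21% lower. The median over the members was 0.11 ± 0.15 (SD over 4 preps), against -0.05 ± 0.06 over all items. In rising order of the mean ratio the members were gpd-4, icl-1, gpd-3, pyk-1, ldh-1, enol-1 and pyk-2.

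**Figure D1:**
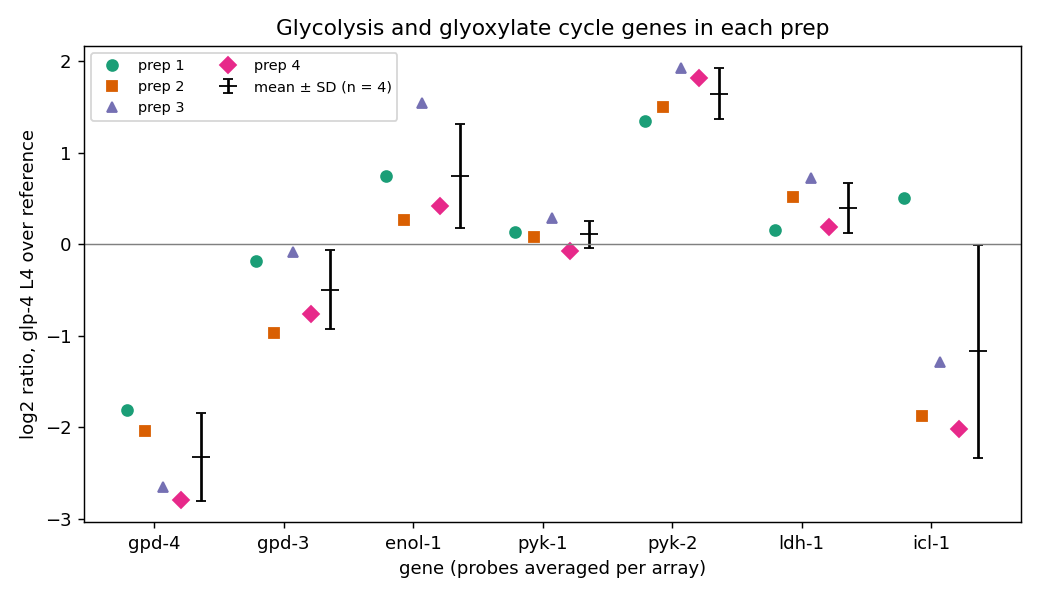
Log2 ratio of glp-4 L4 over reference (vertical axis) of the 7 measured members in each of 4 preps (symbols), with the mean and SD beside them. All 4 preps of gpd-4 lie at or below -1.81 and all 4 of pyk-2 at or above 1.34, while icl-1 is above 0 on prep 1 and below it on preps 2 to 4.

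**Figure D2:**
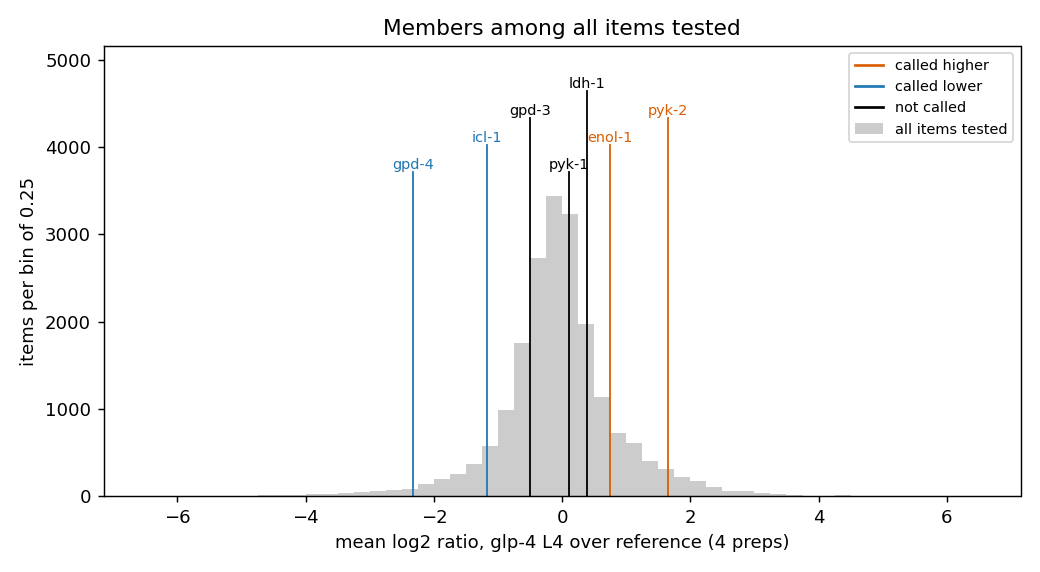
Mean log2 ratio of the 7 members (lines, coloured by their call) over the distribution of mean log2 ratios of all 19989 items tested (grey bars, items per bin of 0.25). The lines of gpd-4 at -2.32 and pyk-2 at 1.64 stand in the tails and that of pyk-1 at 0.11 near the centre.

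Among the GAPDH genes, the embryonic form gpd-4 was lower in every prep. Its log2 ratio was -1.81, -2.03, -2.65 and -2.80 on preps 1 to 4. The lowest values were on preps 3 and 4, whose titles share a code, and the value on prep 1 was the least negative. The mean was -2.32 ± 0.48 (SD, n = 4; 95% interval -2.77 to -1.88; limma adjusted p = 3.9e-05; treat adjusted p = 0.0016), a level 5.0-fold lower than in the reference, and 1.9% of all items had a mean as low. A probe annotated to both gpd-1 and gpd-4 had -1.71, -2.12, -2.97 and -2.91 on preps 1 to 4, with a mean of -2.43 ± 0.61 (SD, n = 4; limma adjusted p = 6.7e-05). On each array it lay within 0.31 of the gpd-4 probe. Since the copies are near-identical, either probe can bind transcripts of both genes, and these values do not show how gpd-1 and gpd-4 share the difference.

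The postembryonic form gpd-3 had -0.18, -0.97, -0.09 and -0.76 on preps 1 to 4. It was close to 0 on preps 1 and 3 and negative on preps 2 and 4. Its mean of -0.50 ± 0.43 (SD, n = 4; 95% interval -0.92 to -0.08) did not pass the test (limma adjusted p = 0.055), and it did pass without prep 1 (-0.61, adjusted p = 0.029) or without prep 3 (-0.64, adjusted p = 0.045). A probe annotated to both gpd-2 and mai-1 had -0.07, -0.89, 0.05 and -0.79 on preps 1 to 4, with a mean of -0.43 ± 0.48 (SD, n = 4; limma adjusted p = 0.11). It lay within 0.13 of the gpd-3 probe on each array. Since gpd-2 and gpd-3 are near-identical too, either probe can bind transcripts of both genes. These values do not show how gpd-2 and gpd-3 share the ratio.

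The gene mai-1, which encodes a relative of the mitochondrial ATPase inhibitor, lies beside gpd-2 on chromosome X, with gpd-3 on the other side of gpd-2, and the 3 genes are known as an operon. Its own probe had -0.89, -0.67, -0.39 and -0.61 on preps 1 to 4, a mean of -0.64 ± 0.20 (SD, n = 4; limma adjusted p = 0.0067), negative on every prep. The probe shared with gpd-2 differed from it by 0.18 to 0.81 over the arrays, so it followed the gpd-3 probe more closely than that of mai-1.

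**Figure D3:**
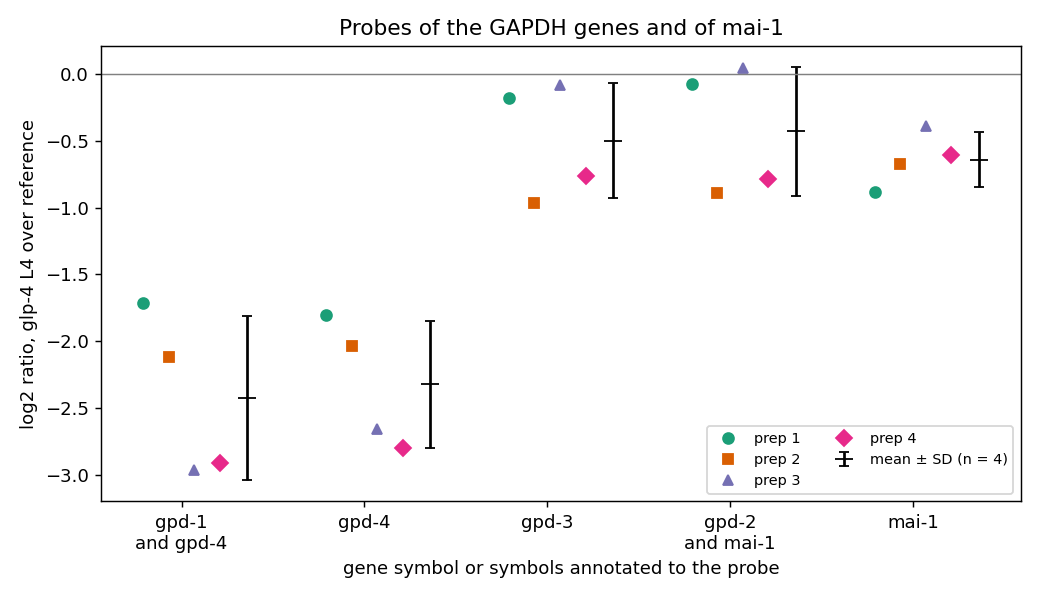
Log2 ratio of glp-4 L4 over reference (vertical axis) of 5 probes, named by the gene or genes annotated to them, in each of 4 preps (symbols), with the mean and SD. The probes of gpd-4 alone and of gpd-1 with gpd-4 lie between -2.97 and -1.71, and those of gpd-3, of gpd-2 with mai-1, and of mai-1 alone lie between -0.97 and 0.05.

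The embryonic and postembryonic forms could be compared only through the probes of gpd-4 and gpd-3, each of which can also bind the near-identical copy. The log2 ratio of gpd-4 minus that of gpd-3 was -1.62, -1.07, -2.57 and -2.03 on preps 1 to 4. The difference was negative on 4 of 4 arrays, with a mean of -1.82 ± 0.63 (SD, n = 4), a ratio 3.54-fold lower for gpd-4 than for gpd-3. By an exact permutation test that flips the sign of each prep (two-sided), p was 0.125, also adjusted over the 2 differences examined, and this is the smallest value that 4 preps allow. With the probes of 2 symbols averaged in, a choice made after the data were seen, the difference was -1.91 ± 0.70 (SD, n = 4; exact permutation p = 0.125). Short lists of marker genes were read beside it. Of 12 germline and oocyte markers, 12 were lower, with gene means from -5.06 to -1.73. Their list median went from -3.88 to -3.09 over the preps. Of 14 measured markers of early embryonic transcription 4 were lower and 0 higher, with gene means from -1.13 to 0.44. Their list median went from -0.33 to 0.02 over the preps. Of all items 24.4% were called lower, a share that 4 of 14 is near and 12 of 12 exceeds. The part of either tissue in the gpd-4 ratio was not tested.

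Among the measured glycolytic members, enolase had the largest SD. The average of its 2 probes was 0.75, 0.27, 1.54 and 0.41 on preps 1 to 4, positive on every array and largest on prep 3. The mean was 0.74 ± 0.57 (SD, n = 4; 95% interval 0.25 to 1.23; limma adjusted p = 0.022), or 1.67-fold higher, and without prep 3 it was 0.48 and did not pass (adjusted p = 0.067). The 2 probes differed most on prep 3, at 0.76 and 2.32. On the other preps they read 0.60 and 0.90, 0.16 and 0.37, and 0.51 and 0.32, so the large value of prep 3 came from 1 of the 2 probes. Their means lay 0.47 apart, against a median of 0.22 over the 1456 genes with more than 1 probe.

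Of the pyruvate kinase genes, pyk-2 was higher and pyk-1 did not pass. Values of pyk-1 were 0.14, 0.07, 0.29 and -0.07 on preps 1 to 4, on both sides of 0, with a mean of 0.11 ± 0.15 (SD, n = 4; 95% interval -0.21 to 0.42; limma adjusted p = 0.56). Those of pyk-2 were 1.34, 1.49, 1.93 and 1.82, and the lowest of them exceeded every value of pyk-1. The mean of pyk-2 was 1.64 ± 0.27 (SD, n = 4; limma adjusted p = 6.8e-05), a 3.13-fold higher level, and it passed the 2-fold test (treat adjusted p = 0.019). That 2-fold call was lost without prep 2, prep 3 or prep 4, whereas the difference from 0 held in each case. The log2 ratio of pyk-1 minus that of pyk-2 was -1.2, -1.42, -1.64 and -1.89 on preps 1 to 4, negative on 4 of 4 arrays, with a mean of -1.54 ± 0.30 (SD, n = 4; p = 0.125 by the same exact test, its smallest value, also adjusted over 2 differences). Marker lists that were mostly higher were those of intestine (7 of 8 higher, 1 lower), epidermis (5 of 7 higher, 1 lower) and body wall muscle (5 of 8 higher, 0 lower), while of 5 pharynx markers 0 were higher and 2 lower. Of all items 20.6% were called higher and 24.4% lower. The part of these tissues in the pyk-2 ratio was not tested.

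Lactate dehydrogenase, at the branch from pyruvate, was slightly positive on every array. The values of ldh-1 were 0.15, 0.52, 0.73 and 0.19 on preps 1 to 4, with a mean of 0.39 ± 0.28 (SD, n = 4; 95% interval 0.04 to 0.75) that did not pass (limma adjusted p = 0.066). Without prep 1 it passed, at 0.48 (adjusted p = 0.039).

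The glyoxylate cycle gene icl-1 was the member with the widest spread between preps. Averaged over its 3 probes it had 0.50, -1.88, -1.29 and -2.02 on preps 1 to 4, so prep 1 lay above the reference and the other preps below it. The mean of -1.17 ± 1.16 (SD, n = 4; 95% interval -2.03 to -0.31) passed the test narrowly (limma adjusted p = 0.033), and 1.11% of all items had a larger SD. Without prep 1 the mean was -1.73 (adjusted p = 7.5e-05) and passed 2-fold. Without prep 2, 3 or 4 it was -0.93, -1.13 and -0.89 and did not pass (adjusted p from 0.11 to 0.14).

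The 3 probes of icl-1 showed the same pattern. On prep 1 they had 0.57, 0.40 and 0.54. On prep 3 they had -1.49, -0.84 and -1.54, and on preps 2 and 4 all lay between -2.22 and -1.80. Their means lay within 0.21 of each other, so the distance of prep 1 was not that of a single spot. Prep 1 exceeded the mean of preps 2 to 4 by 2.23 for icl-1, and 0.38% of the 19400 items measured on all 4 arrays lay as far apart in either direction. A positive value on prep 1 with negative values on preps 2 to 4 was found for 8.71% of these items. Prep 1 also had the lowest correlations with the other preps over all items (Pearson's r of 0.82, 0.74 and 0.80 with preps 2, 3 and 4, against 0.87 to 0.90 among those), which are values across items that are not independent replicates.

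**Figure D4:**
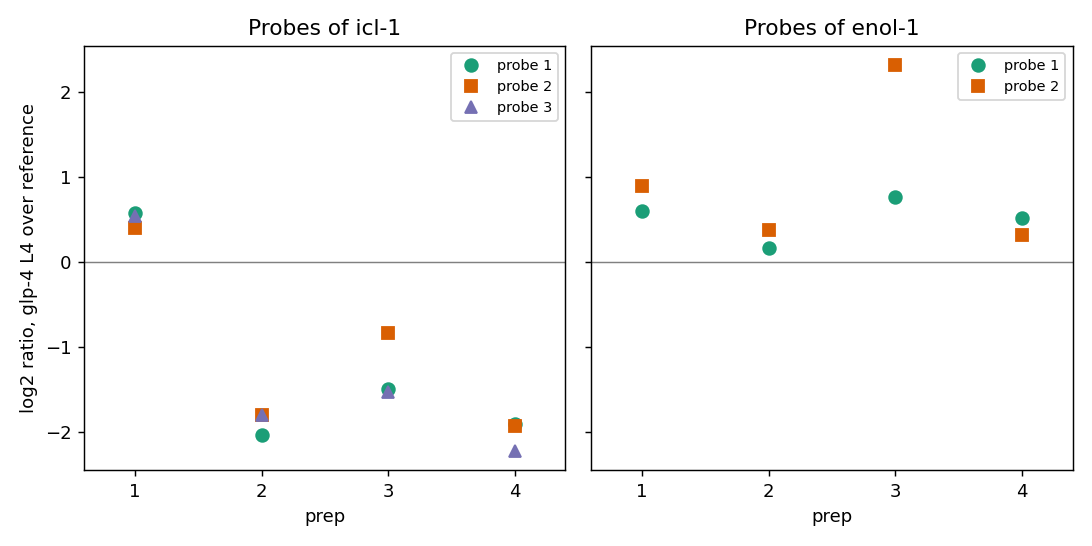
Log2 ratio of glp-4 L4 over reference (vertical axis) of each single probe of icl-1 (left, 3 probes) and enol-1 (right, 2 probes) on each prep (horizontal axis). The icl-1 probes all lie above 0 on prep 1 and all below it on preps 2 to 4. They lie widest apart on prep 3, at -1.49, -0.84 and -1.54. The enol-1 probes also part most on prep 3, at 0.76 and 2.32.

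Genes whose ratios were nearest to those of a member over the 4 preps were taken from 14640 named genes on all arrays, by root mean square distance. For gpd-4 these were C41G11.1 (0.111), kca-1 (0.115) and F26G5.1 (0.115). For gpd-3 they were F25E5.8 (0.066), wsp-1 (0.071) and idha-1 (0.093), the last a subunit of isocitrate dehydrogenase in the TCA cycle. For icl-1 they were frm-1 (0.205), D1086.5 (0.354) and pod-2 (0.359), the last known as an acetyl-CoA carboxylase. Only 4 values enter each distance.

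Of 9 other measured glycolytic genes 2 were higher, 1 was lower and 6 did not pass, 3 calls where 45.0% of all items were called, and the list's median was 0.10 ± 0.13 (SD, n = 4 preps). Phosphoglycerate kinase (pgk-1), which acts just after GAPDH, had 0.69, 0.59, 0.93 and 0.60 on preps 1 to 4, a mean of 0.70 ± 0.16 (SD, n = 4; limma adjusted p = 0.0035), and phosphoglycerate mutase (ipgm-1), just before enolase, had 0.65 ± 0.58 (adjusted p = 0.041). The call of ipgm-1 was lost without prep 2, 3 or 4. Hexokinase hxk-1, which traps glucose in the cell, was lower at -0.96 ± 0.34 (SD, n = 4; limma adjusted p = 0.0019). Its paralog hxk-2 had 0.20, 0.55 and 0.04 on preps 1, 3 and 4, with no value on prep 2, and a mean of 0.26 ± 0.26 (SD, n = 3; limma adjusted p = 0.27). The aldolase genes aldo-1 and aldo-2 had -0.12 ± 0.35 and -0.27 ± 0.15, the phosphofructokinase genes pfk-1.1 and pfk-1.2 had 0.10 ± 0.44 and 0.17 ± 0.46, and the triosephosphate isomerase gene tpi-1 had 0.30 ± 0.18 (n = 4 each), none past the test.

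The list of gluconeogenesis, the route from TCA cycle acids back to sugar, had a median of -0.36 ± 0.29. Of its 4 measured genes 0 were higher and 1 was lower, near the 24.4% of all items called lower. The lower one was pck-1, phosphoenolpyruvate carboxykinase, at -0.47, -1.04, -0.57 and -1.07 on preps 1 to 4 and a mean of -0.79 ± 0.31 (SD, n = 4; limma adjusted p = 0.0042). Its paralogs pck-2, at -0.23 ± 0.41 (SD, n = 4; adjusted p = 0.34), and pck-3, at 0.15 ± 0.40 (SD, n = 4; adjusted p = 0.51), did not pass and lay on opposite sides of 0. Pyruvate carboxylase (pyc-1) had -0.43 ± 0.34 (adjusted p = 0.062). On prep 1, where icl-1 was positive, pck-1 was negative. Without prep 1, 2 genes of the list were lower.

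For pyruvate entry into mitochondria and the TCA cycle, 2 of 6 and 10 of 20 measured genes were called, near the 45.0% of all items, which is no result about these lists as a whole. Of 6 genes of pyruvate entry 2 were higher, 0 lower, namely pdhb-1 (0.50 ± 0.10, n = 3, with no value on prep 3; adjusted p = 0.039), a subunit of pyruvate dehydrogenase, and its kinase pdhk-2 (0.42 ± 0.13, n = 4; adjusted p = 0.033). Without prep 1, 2 or 4 neither was called, in fits that took items with at least 2 values. Without prep 3 pdhb-1 alone was called, which is no check on it, since its values were then the same. For the TCA cycle, 7 of 20 genes were higher, 3 were lower and 10 missed the threshold, with a list median of 0.26 ± 0.21.

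The largest TCA cycle ratio was that of suca-1, a subunit of succinyl-CoA synthetase, with 1.74, 1.49, 1.96 and 1.60 on preps 1 to 4. Its mean of 1.70 ± 0.20 (SD, n = 4; limma adjusted p = 4.0e-05) passed 2-fold (treat adjusted p = 0.0092). Also higher were its partner subunits sucl-1 (0.76 ± 0.36) and sucl-2 (0.95 ± 0.41), while the other beta subunit sucg-1 had -0.30 ± 0.67 and did not pass. The isocitrate dehydrogenases, which compete with isocitrate lyase for isocitrate, went both ways. Here idh-2 (1.06 ± 0.09), idhg-2 (1.04 ± 0.21) and idhb-1 (0.57 ± 0.22) were higher, idhg-1 (-0.85 ± 0.27) was lower and idha-1 had -0.44 ± 0.40 without a call. Malate dehydrogenase mdh-2 was higher (0.63 ± 0.36), and aconitase aco-2 (-0.44 ± 0.24) and the succinate dehydrogenase subunit sdha-2 (-0.77 ± 0.52) were lower (SD, n = 4 for each gene; adjusted p of the called genes from 4.0e-05 to 0.040). The other measured succinate dehydrogenase subunits, sdha-1 (0.37 ± 0.19), mev-1 (0.32 ± 0.27) and sdhd-1 (0.37 ± 0.12), were positive on all 4 arrays and did not pass (adjusted p of 0.062, 0.12 and 0.053). Without prep 2, 3 or 4, 2 genes of the list were lower, since aco-2 lost its call each time. The call of idhb-1 was lost without prep 2 and that of mdh-2 without prep 3.

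Of 4 cytosolic counterparts 2 were higher and 0 lower, aconitase aco-1 at 1.1 ± 0.14 (SD, n = 4; adjusted p = 0.00031) and isocitrate dehydrogenase idh-1 at 0.60 ± 0.51 (adjusted p = 0.039), the second with 0.91, 0.74, 0.91 and -0.16 on preps 1 to 4 and with no call without prep 1, 2 or 3. Of all items 20.6% were called higher and 24.4% lower, and the list of cytosolic counterparts was not tested as a whole. Of 2 measured pentose phosphate genes, tkt-1 and rpia-1, neither passed, at 0.19 ± 0.34 and 0.03 ± 0.24 (n = 4 each).

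Storage sugar genes held the widest range. Of 11 measured, 5 were higher, 2 lower and 4 did not pass, with a list median of 0.40 ± 0.19. Of all items 20.6% were called higher and 24.4% lower, and the list as a whole was not tested. Trehalases, which split trehalose into glucose, were higher for tre-4 (2.15 ± 0.29; treat adjusted p = 0.0010), tre-3 (1.16 ± 0.25) and tre-2 (0.99 ± 0.32), while tre-1 (0.32 ± 0.33) and tre-5 (0.15 ± 0.43) did not pass. The trehalose 6-phosphate phosphatase gob-1 was higher (0.81 ± 0.22), and the synthases tps-1 (-0.28 ± 0.53) and tps-2 (0.09 ± 0.23) did not pass. Of the glycogenins, which start glycogen chains, gyg-2 was lower at -2.63, -2.97, -2.90 and -3.27 on preps 1 to 4 (mean -2.94 ± 0.26; treat adjusted p = 4.9e-05) and gyg-1 was higher (0.40 ± 0.19; adjusted p = 0.048), a call lost whichever prep was left out. Glycogen phosphorylase pygl-1 was lower (-0.83 ± 0.39; SD, n = 4 for each gene).

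Over all these lists together, mai-1 included, 18 of 57 measured genes were higher and 8 lower. The share called in either direction is close to the 45.0% of all items. By direction, the share higher is above the 20.6% of all items and the share lower is below their 24.4%. The lists together were not tested as a set. Their median was 0.20 ± 0.21 over the preps. Of the 26 called, 18 kept their call whichever 1 prep was left out, 11 higher and 7 lower. The median over the lists was 0.38, 0.00, 0.38 and 0.04 on preps 1 to 4, against 0.02, -0.03, -0.12 and -0.08 over all items. Preps 1 and 3 thus lay above preps 2 and 4 for these lists, as for gpd-3, and the cause was not tested.

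**Figure D5:**
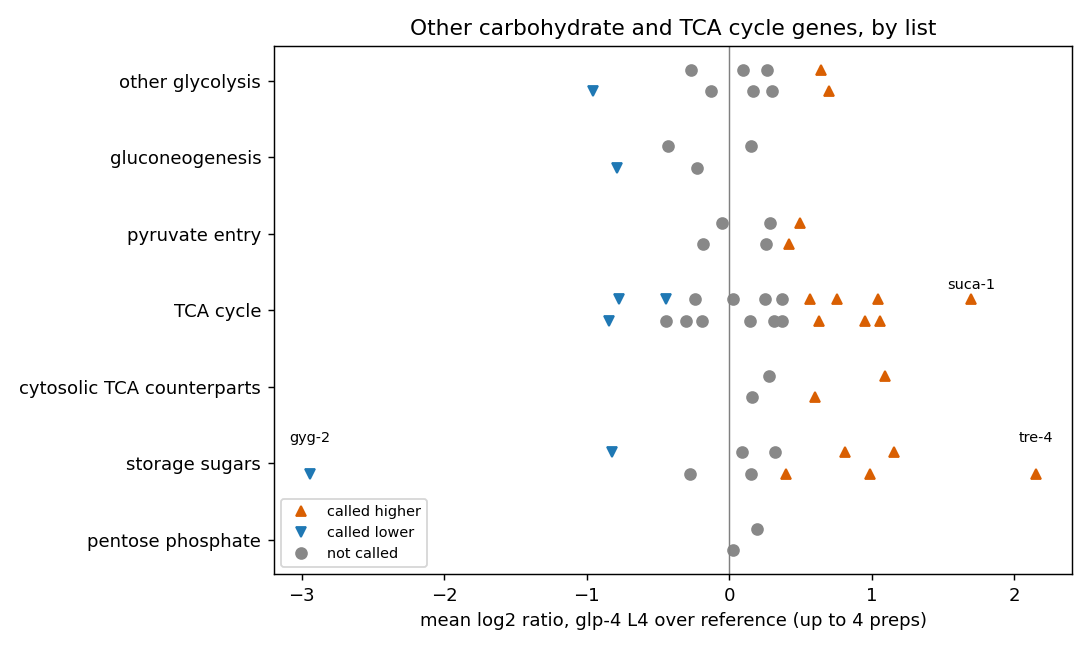
Mean log2 ratio of glp-4 L4 over reference (horizontal axis) of each measured gene outside the members, by list (rows). Symbols give the call at an adjusted p under 0.05, and names mark genes called past 2-fold by limma treat. Other genes with a mean beyond 2-fold missed that test and are not named. The 3 named genes, suca-1 at 1.70, tre-4 at 2.15 and gyg-2 at -2.94, stand apart from lists that mostly lie between -1 and 1.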

How the data were processed

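The authors deposited log2 ratios per probe, in 1 column for each array. Their scanner, background correction, normalization and centring: not given in the sources used here. Base 2 was settled from the files: the ratios under 20 it gives were whole thousandths, to within 0.01, in 100% of cases. Without intensities, dim spots were not assessed, and precision is limited by the number of arrays. Probes were named from the platform annotation, updated to RefSeq (WBcel235): 16450 had 1 symbol, 247 several and 4935 none here. Probes of a gene were averaged per array, and probes with several symbols or none were kept as items of their own. Items with values on at least 3 arrays (19989) entered a two-sided limma test (version 3.58.1, R 4.3.3) of the mean against 0, by lmFit and eBayes, with Benjamini-Hochberg adjustment over all items and a threshold of 0.05, and treat for 2-fold. Differences between genes were tested by exact sign-flip permutation over preps. The members and lists were chosen with earlier results of these data known. The genes named were the members, list genes, mostly those past the threshold, and the 3 nearest genes of gpd-4, gpd-3 and icl-1. List genes without a call were added after their values were seen. On simulated data for this comparison (19989 items, 200 changed, all upward), 8.82%, 95.7% and 100% of changes of 0.5, 1 and 2 were recovered. In the data 45.0% of items were called, and the adjustment is stricter where fewer items change. The shares recovered therefore do not give the sensitivity reached in the data. Alternatives covered centring, scaling, missing values, each prep left out, the title code shared by preps 3 and 4, probes, moderation, threshold and sign.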

Additional observations from a re-analysis of the deposited data

Results flagged for a closer look

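Of 52 sets of 4 values examined for 1 prep far from the others, 4 stood out, and chance marks about 1 in 20; none was a member. Prep 4 was the distant one each time. For idh-1 it had -0.16, against 0.74 to 0.91 on the other preps. For idh-2 it had 1.19, against 1.00 to 1.03. For gyg-1 it had 0.12, against 0.48 to 0.52, and the median of the storage sugar list had the same values, 0.12 on prep 4, because gyg-1 was the middle gene of that list on every array. No cause was tested.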

How the results depend on the processing

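No member changed direction under the alternatives, apart from turning every sign, which by construction gives 1.82 for gpd-4 minus gpd-3 and 1.54 for pyk-1 minus pyk-2. Centring the arrays, whose medians were 0.02, -0.03, -0.12 and -0.08, with or without scaling, changed no member's call. The calls of gpd-4 and pyk-2 against 0 held under every alternative run. That of enol-1 was lost with the title code as a random block (0.70, adjusted p = 0.057), with no moderation (0.74, adjusted p = 0.16) and at an adjusted p under 0.01. That of icl-1 was lost with the block (-1.1, adjusted p = 0.057), with preps 3 and 4 averaged (-1.01, adjusted p = 0.12), with robust (-1.17, adjusted p = 0.065) or no moderation (adjusted p = 0.23) and at an adjusted p under 0.01. Of members, 1 was then higher with the block, no moderation or the stricter threshold, and 1 lower with these, robust moderation or preps averaged. Past 2-fold, 0 were higher with preps averaged or the stricter threshold. limma's duplicateCorrelation gave no value for the block, so a correlation of 0.37 from the variance within and between blocks was used. The cause was not tested in these cases.

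Leaving out each prep gave -2.49 to -2.16 for gpd-4, -0.64 to -0.34 for gpd-3, 0.48 to 0.90 for enol-1, 0.28 to 0.48 for ldh-1, 0.05 to 0.17 for pyk-1, which passed in no case, 1.55 to 1.75 for pyk-2 and -1.73 to -0.89 for icl-1, 1 to 3 members higher and 1 to 3 lower, 0 to 1 past 2-fold higher and 1 to 2 lower, -2.07 to -1.57 for gpd-4 minus gpd-3 and -1.65 to -1.42 for pyk-1 minus pyk-2. Of the 57 list genes, 11 were higher at an adjusted p under 0.01, 4 lower with no moderation, and 8 higher and 18 lower with signs turned. Over all items, 2524 were higher and 2781 lower with no moderation, and 3093 lower at the stricter threshold. The planned differences of gpd-1 minus gpd-4 and gpd-2 minus gpd-3 were not run, since gpd-1 and gpd-2 had no probe of their own. The differences between genes were paired within each array. Preps could not be paired between groups, because all belong to the same group.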
